A study of Drosophila melanogaster with 3 samples.

Results

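A consensus region, as used here, is a stretch of the Drosophila melanogaster genome with an anti-HA CUT&Tag peak in each of 3 wing disc libraries, and the regions described are those that lay deep inside genes. Any overlap of 1 bp or more joined peaks of different libraries, on the major chromosome arms and the Y, and a joined region counted if every library contributed a peak to it. Its centre was taken as the average summit position of the highest peak from each library. A region was chosen when its centre lay inside an annotated gene and over 1000 bp from either end of any gene on the dm6 assembly. Of 5768 consensus regions, 2167 (37.6%) met this rule, 2789 (48.4%) were centred within 1000 bp of a gene boundary and 812 (14.1%) lay farther outside genes. The choice used position and presence in all 3 libraries, not the height or width of a peak.

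The libraries were made from wing discs, the larval primordia of the adult wing, taken from larvae of the third instar kept at 25 °C with the genotype nub>GFP;UAS-BunA-HA. The BunA isoform of bunched, tagged with HA, and GFP were thus expressed under nub-Gal4, which drives in the wing pouch and not in the whole disc, and the antibody recognised the tag. All 3 libraries belong to this single group, so no condition was compared, and they are numbered 1 to 3 in accession order. The labels do not say whether they came from separate crosses, so SDs given here may reflect technical spread alone, and no library without the tagged protein was analysed here.

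bunched encodes the Drosophila member of the TSC22 domain family, and its long isoform BunA promotes growth. Developmental genes of the fly often carry their enhancers in long introns, together with alternative promoters for other transcripts of the same gene. CUT&Tag cuts DNA near the bound protein and can also cut accessible chromatin, so an intragenic region is a position of tagged DNA and not by itself a binding site. The gene table used here gives the ends of each gene but no strand, exons or internal transcription starts, and intron, exon and internal promoter were not told apart.

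Deep regions were spread through gene interiors at a nearly even density up to 20 kb from a gene end. There were 32.8 of them per Mb of sequence inside genes and over 1000 bp from any boundary, against 72.6 consensus regions per Mb within 1000 bp of boundaries and 24.8 per Mb outside genes. The density was 36.02 per Mb at 1 to 2 kb from the nearest boundary, 34.3 at 2 to 5 kb, 36.4 at 5 to 10 kb and 35.0 at 10 to 20 kb. It was 25.8 per Mb at 20 to 50 kb and 6.58 per Mb farther in. The peaks of single libraries, classed by their own summits, were also fewer per Mb beyond 20 kb, with 48.1 ± 1.247 peaks per Mb (SD, n = 3) at 1 to 2 kb, 50.9 ± 2.12 at 10 to 20 kb, 38.4 ± 1.36 at 20 to 50 kb and 14.99 ± 1.51 beyond. The median region lay 5024 bp from the nearest boundary, and 192 lay over 20 kb away.

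**Figure D1:**
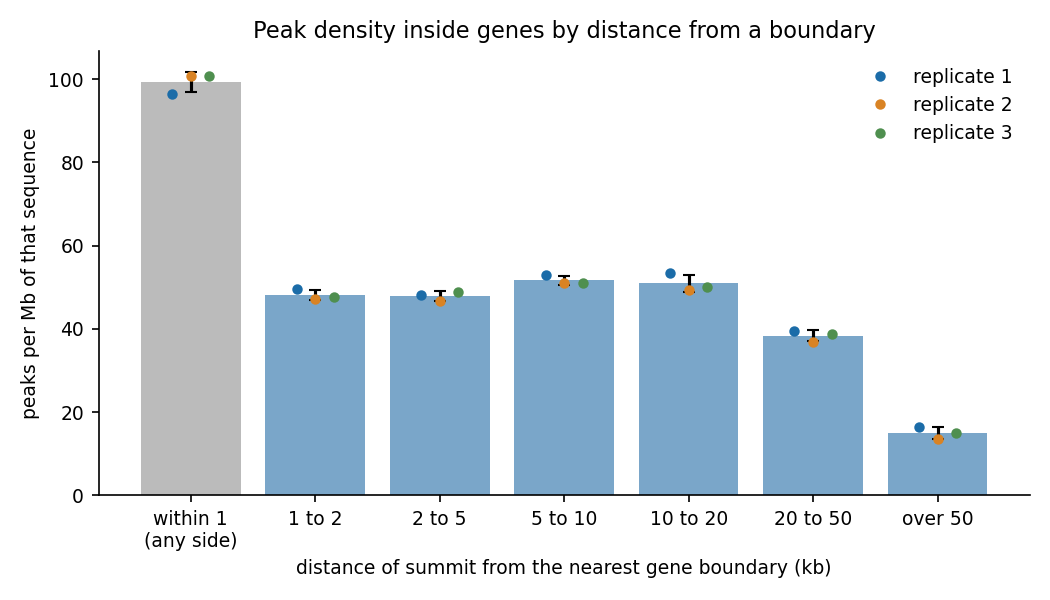
Peaks per Mb of sequence by distance of the summit from the nearest gene boundary in kb, for sequence inside genes and, in grey, for all sequence within 1000 bp of a boundary. Bars are means of the 3 libraries with their SD and points are the libraries; the bars for 1 to 20 kb lie between 47.9 and 51.7 peaks per Mb, and the bar over 50 kb is at 14.99.

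The sequence over 50 kb from a boundary belonged to 33 genes, and 1.87 of its 3.65 Mb lay in Myo81F and Pzl on 3R. Myo81F, which encodes an unconventional myosin and lies in the pericentromeric 81F band, held 3 deep regions in all, and Pzl, which encodes a relative of the mechanosensitive channel Piezo, held 3. Of the 24 regions this far inside, 6 were in hth, a homeobox gene, 4 in lovit, 3 each in Myo81F, Pzl and fru, and 2 in lncRNA:flam, the host transcript of a piRNA cluster. The 6 in hth lay in 0.0261 Mb of such sequence, and Y genes held 1 region in 0.388 Mb. Density thus differed between genes at this depth. The deepest of all, at chr3R:2958811-2959076 in Pzl and 214143 bp from a gene end, had folds of 5.08, 4.67 and 4.75 in libraries 1, 2 and 3. The 3 libraries thus differed little at this position, and its fold was below the median of the deep regions in each.

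Fold enrichment at the summit, the ratio over the background estimated by the peak caller, had medians of 7.92, 8.22 and 8.14 over the deep regions in libraries 1, 2 and 3. Regions near a gene boundary had medians of 8.08, 9.0 and 8.73, and those outside genes 7.07, 7.29 and 7.16. Deep regions were thus lower than boundary regions in 3 of 3 libraries, with a mean difference of -0.509 ± 0.317 (SD, n = 3), and higher than regions outside genes in 3 of 3, by 0.920 ± 0.0653. Each comparison had a p of 0.25 in a two-sided exact sign-flip permutation test over libraries, the smallest that 3 libraries allow, so neither can pass a threshold of 0.05. Over the deep regions the mean fold of the 3 libraries ran from 3.05 to 50.2, with quartiles of 6.26 and 10.8. Of the 577 consensus regions in the top 10% by mean within-library percentile, 204 were deep regions, which is 9.41% of those described here.

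Deep regions were wider than boundary regions. The highest peak of a deep region had a median width of 203, 209 and 209 bp in the 3 libraries, against 172, 181 and 184 bp near boundaries, a difference of 28 ± 3 bp (SD, n = 3; two-sided exact sign-flip permutation test, p = 0.25, the smallest possible). In a split into 4 classes by fold, chosen after seeing the data, the differences were 20.3 ± 2.52, 36.7 ± 1.53, 50 ± 3.61 and 36.7 ± 6.03 bp from the lowest to the highest class. Regions outside genes were close to deep regions in width, with 197, 207 and 196 bp. Of the deep regions, 256 (11.8%) were at least 450 bp wide after merging, against 8.43% of boundary regions and 14.8% of regions outside genes.

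**Figure D2:**
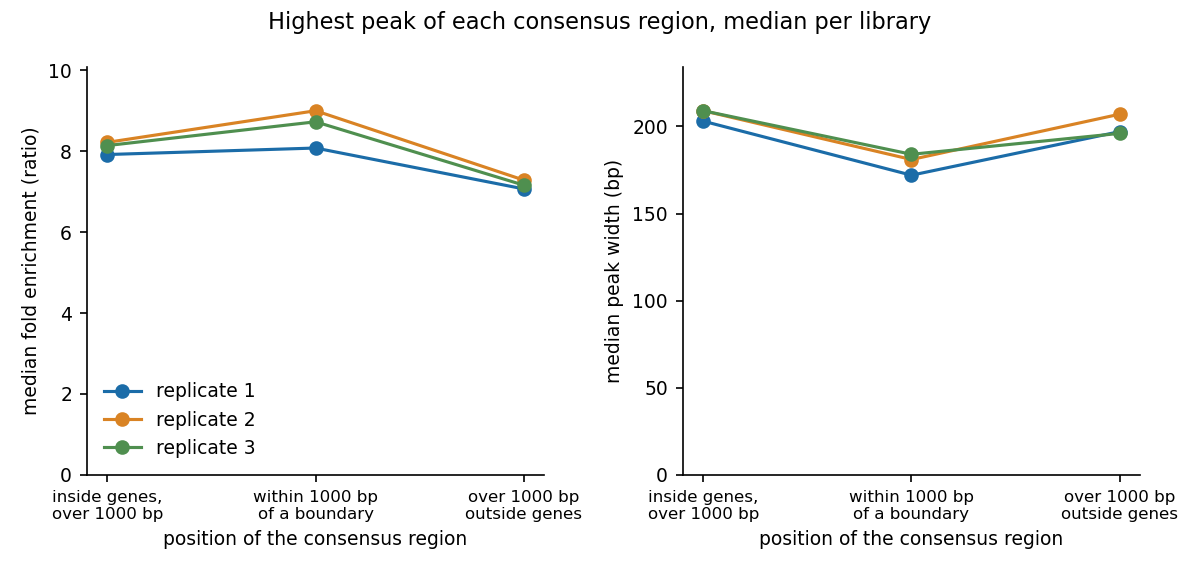
Median fold enrichment (left, ratio) and median width in bp (right) of the highest peak per consensus region, by position class, with 1 line per library. Each of the 3 libraries has a lower fold and a larger width deep inside genes than within 1000 bp of a boundary.

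Across the 2167 regions, which share libraries and are no replicates of each other, the Spearman correlation of fold was 0.812 between libraries 1 and 2, 0.828 between 1 and 3 and 0.840 between 2 and 3. The highest library fold was a median of 1.27 times the lowest, and it was over 2 times the lowest in 28 regions (1.29%). Summits of the 3 libraries fell within 50 bp of each other in 1313 regions (60.6%), against 68.7% of boundary regions and 60.5% of regions outside genes. Counting merged regions of any number of libraries, 4062 were deep inside genes, of which 53.3% had peaks of all 3 libraries, against 57.0% near boundaries and 42.4% outside genes. Of the deep peaks of libraries 1, 2 and 3, 70.5%, 73.8% and 72.3% lay in a consensus region, and of the peaks near boundaries 76.9%, 73.5% and 73.1%. Library 2 thus went the other way from libraries 1 and 3.

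Among deep regions above the middle of the within-library percentiles, the libraries differed most in Exn and neur. The region in Exn had folds of 4.79, 8.68 and 12.1 in libraries 1, 2 and 3. The region in neur, the gene of the ubiquitin ligase Neuralized that acts on Notch ligands, had 4.99, 8.10 and 12.4. Library 1 was lowest in both, but a region in dlp, a glypican gene, was highest there, with 12.8 against 5.67 and 7.55. A region inside both Ubr3 and orion had 10.6, 12.9 and 5.62, lowest in library 3, and one inside Antp and CG46458 had 4.60, 7.88 and 10.3. At the 1000 bp threshold, the 30 regions up to 50 bp beyond it had a median of their mean folds of 9.17, and the 33 regions inside genes up to 50 bp short of it, which were left out, had 7.96.

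Of the 15 strongest deep regions, 4 stood in genes of the Y chromosome. In kl-5, which encodes an axonemal dynein heavy chain of sperm, the region at chrY:132468-132628 had folds of 49.1, 51.3 and 50.2, and another at chrY:124214-124742 had 35.3, 35.4 and 36.7. The region of kl-2, a dynein gene of the same kind, had 39.1, 39.0 and 38.0, and that of Ppr-Y had 34.3, 34.7 and 33.0. In all 4 the libraries lay within 4 fold units of each other, and each stood above the highest autosomal deep region of a gene other than Pzl. The Y chromosome held 7 deep regions, 7.05 per Mb of its gene interiors. How the submitters treated reads that map to repeated sequence is not given in the sources used here, and its part in these values was not tested.

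Pzl held the highest deep region of an autosome, at chr3R:3170018-3170369, with 35.3, 30.4 and 35.2. The part of repeated sequence in this value was not tested either. In sr, whose EGR-type transcription factor Stripe specifies tendon cells, the region at chr3R:18121471-18122070, 12696 bp from the nearest gene end, had folds of 25.8, 25.8 and 25.0. It was the only deep region of that gene, and its summits fell within 1 bp of each other. The region of shot, which encodes a spectraplakin that links actin and microtubules, had 22.2, 26.5 and 26.4, lowest in library 1. In raw, a regulator of JNK signalling, the folds were 25.9, 24.8 and 23.5.

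The others of the 15 strongest ranged from 21.3 to 24.4 in mean fold. They lay in EcR, the ecdysone receptor gene (24.4 ± 0.828; SD, n = 3), SNF4Agamma, a subunit gene of AMP-activated kinase (23.9 ± 1.54), unc-5, a netrin receptor gene (23.7 ± 1.90), Lmpt (23.2 ± 2.23), jar, which encodes myosin VI (23.0 ± 1.20), fax (21.6 ± 0.282) and Msp300, a nesprin gene (21.3 ± 0.669). The widest deep region, of 969 bp at chr2R:13994014-13994982, lay in mam, the gene of the Notch coactivator Mastermind, and its folds of 11.05, 12.2 and 11.5 were far below the strongest. Other regions of about this width lay in tou (937 bp), Pde8 (916 bp), Mur2B (910 bp) and EcR (890 bp).

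**Figure D3:**
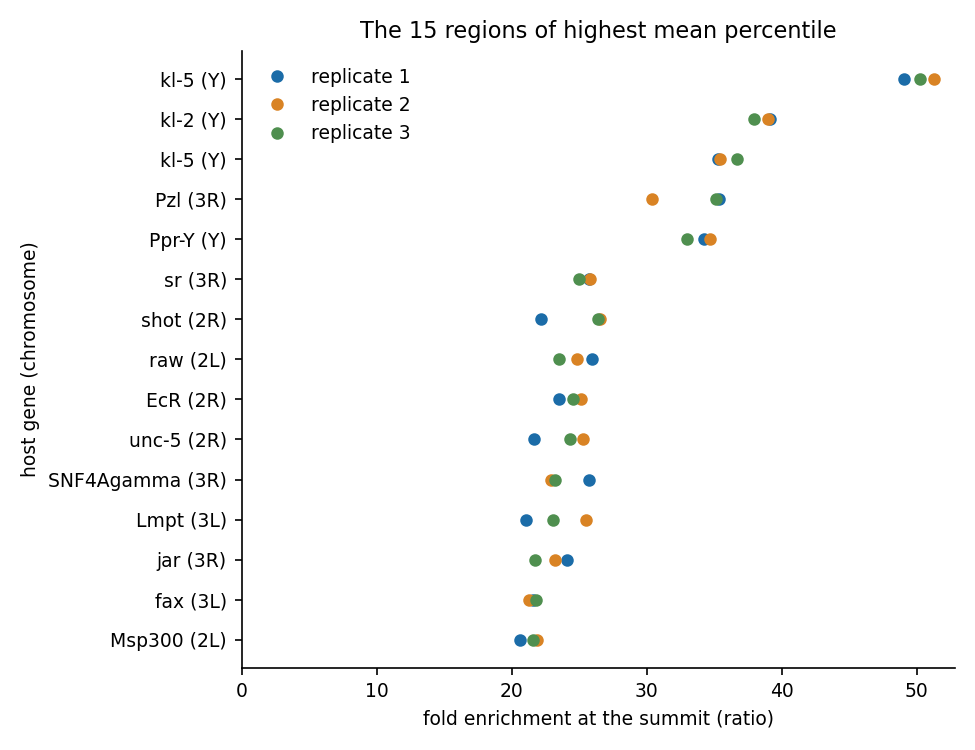
Fold enrichment at the summit (ratio) of the 15 deep regions with the highest mean within-library percentile, with a point per library and the host gene and chromosome on the vertical axis. The 4 regions in Y genes and that in Pzl lie above 30 in every library, and the other 10 lie between 20.6 and 26.5.

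Genes with deep regions were longer than genes without. Deep regions lay in 1002 genes, of which 966 were protein-coding, and 2108 regions (97.3%) were inside at least 1 protein-coding gene. Of the 7075 protein-coding genes with any sequence over 1000 bp from all boundaries, called the interior here, the 966 make up 13.7%. A single deep region was held by 483 of these genes, and 103 genes with 5 or more held 749 regions, 34.6% of all. The median length was 20.5 kb for protein-coding genes with a deep region and 4.21 kb for those with an interior and none. Most regions had company: 1712 (79.0%) shared a gene with another, and 699 (32.3%) had one of the same gene within 1000 bp.

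The share of protein-coding genes with a deep region followed the length of the interior. It was 0.855% for interiors up to 2 kb, 7.27% for 2 to 5 kb, 20.4% for 5 to 10 kb, 33.9% for 10 to 20 kb, 44.1% for 20 to 50 kb and 62.0% beyond. Per 10 kb of interior the count was highest, at 0.433 and 0.400, in genes with interiors of 10 to 20 kb and 5 to 10 kb, and 0.269 in those over 50 kb. A consensus region at one of their own ends was present in 60.6% of genes with a deep region and 33.9% of genes without for interiors of 10 to 20 kb. For those over 50 kb the shares were 51.3% and 22.4%. At the other end, 418 of the 966 genes had deep regions and no consensus region within 1000 bp of their own boundaries.

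The homeobox gene hth, whose product brings Extradenticle into the nucleus and patterns the hinge, held the most deep regions, 21 over 132 kb, and no region at its ends. Their mean folds ran from 5.17 to 14.4, and the strongest, at chr3R:10614240-10614834, had 12.7, 14.1 and 16.3 in libraries 1, 2 and 3. The next in hth, at chr3R:10573710-10573917, had 12.1, 15.3 and 12.3, and the one after, at chr3R:10616704-10616893, had 13.8, 13.7 and 11.4. The Hox gene Antp held 17 (11 of them also inside CG46458, which overlaps it), all of moderate fold, from 3.93 to 9.48. Eip75B, an ecdysone-induced nuclear receptor gene, held 16, the zinc finger gene jing 15 and the BTB gene psq 14.

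Next came mam, sbb and Mur2B with 13 each and Eip74EF, bi, shn and Ptp61F with 12 each. bi encodes the T-box factor Optomotor-blind, shn a zinc finger cofactor of Dpp signalling and Ptp61F a tyrosine phosphatase of JAK-STAT signalling. The 12 regions of bi lay at the same time inside lncRNA:CR32773, which held 19, and 6 of those in Mur2B lay inside br. A region within overlapping genes cannot be given to either. lncRNA:CR44357 held 12, and bun, cic and kirre held 11 each.

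In bunched itself, the 11 deep regions had mean folds from 6.45 to 16.0. The strongest, at chr2L:12461230-12461499, had 15.3, 15.3 and 17.3, and the next, at chr2L:12520341-12520647, had 14.5, 15.01 and 17.9. Another, at chr2L:12514140-12514433, had 13.3, 13.5 and 16.2, so that library 3 was highest at these 3 positions. The larvae carried a BunA transgene, and DNA of the transgene and of the gene cannot be told apart in these lists where they share sequence.

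Counted per length, the order among genes with at least 5 deep regions was different; genes with fewer were not ranked, and some with 1 region in a short interior had higher values. spi, the gene of the EGFR ligand Spitz, held 5 deep regions in 5.05 kb of interior, with mean folds between 3.99 and 8.80. That is 9.90 per 10 kb, against 0.327 over all protein-coding genes and 0.400 over those with interiors of 5 to 10 kb. With at least 5 regions required, a short interior entered this order only at a high count per length. Xrp1, a bZIP gene, had 4.99 per 10 kb, lncRNA:let7C, the host of the let-7 microRNAs, 4.37, drn 3.86 and Mnt, whose product opposes Myc, 3.59. Tis11 (3.12), the Mediator gene skd (2.87), vri (2.80), E2f1 (2.76) and tara (2.75) followed.

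**Figure D4:**
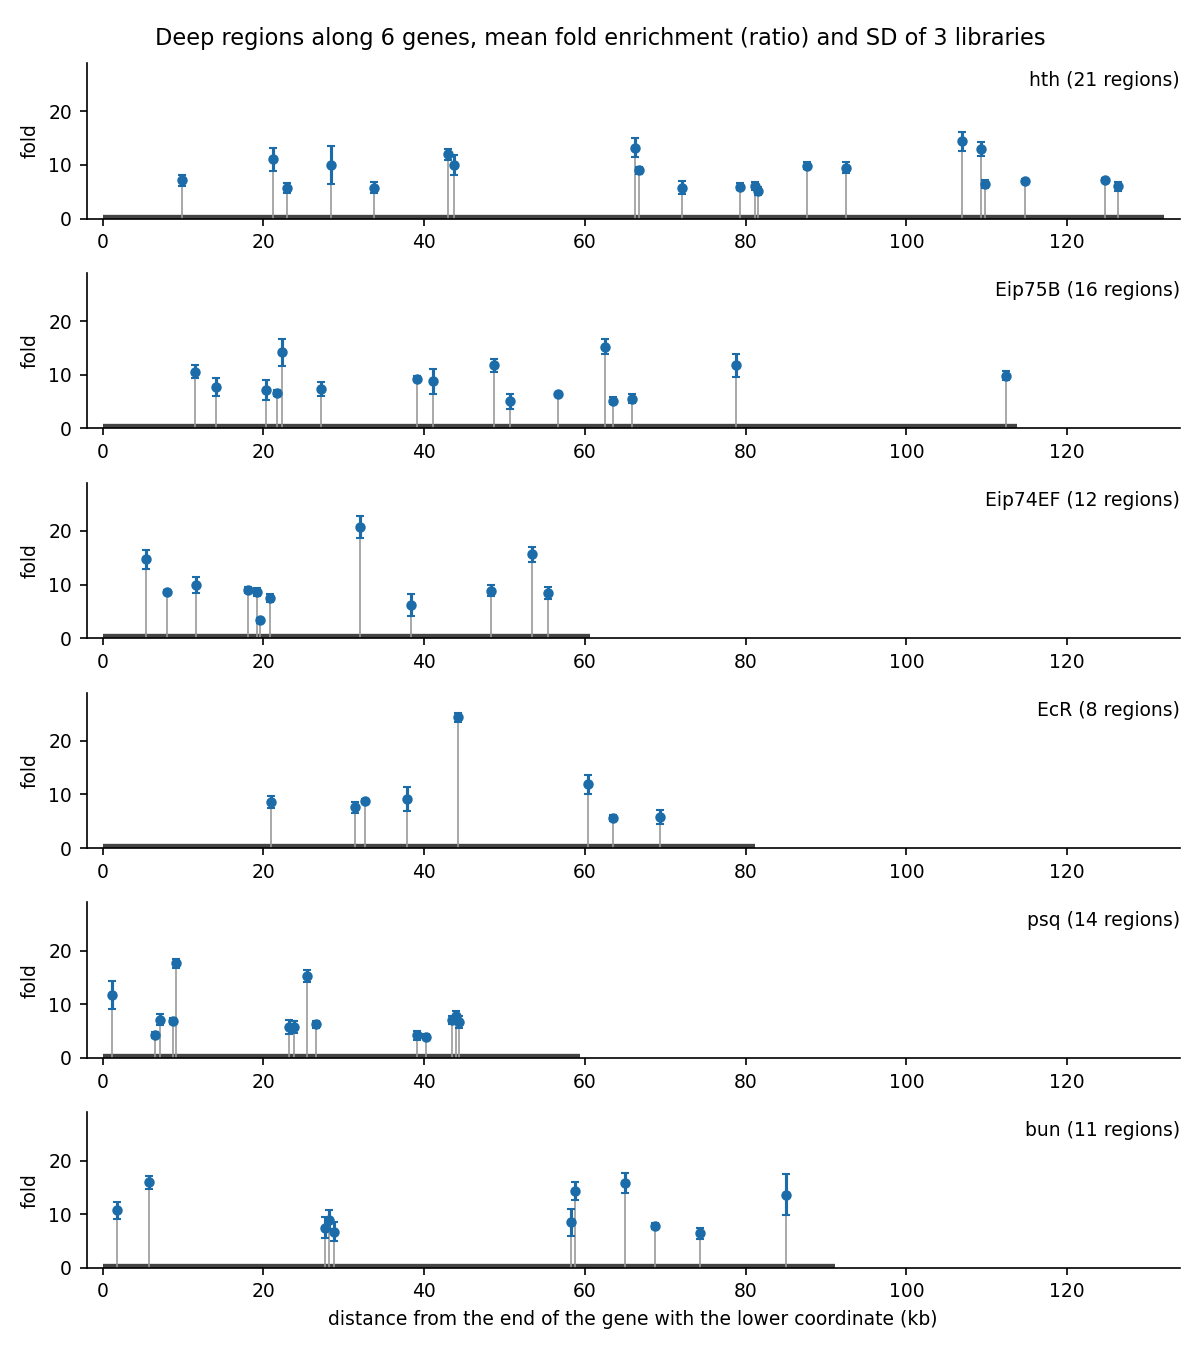
Mean fold enrichment (ratio) of each deep region along 6 genes against distance in kb from the end with the lower coordinate, with the SD of 3 libraries as bars and the gene as a dark line. The 21 regions of hth spread over its length at moderate fold, and EcR and Eip74EF each have a position above 20 among lower ones.

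Hormone response genes had deep regions in 15 of 18 genes with an interior. Among all protein-coding genes of the same interior lengths the share was 43.1%, and the counts by list below are set beside such a value. Each library alone, counting its own deep peaks, gave 15 of 18, where 50.8% of genes of these lengths, averaged over the libraries, held a peak. Counts for single libraries are set beside this second, higher share. All lists were written with earlier results of these data known, so these shares are descriptions and not an independent test. The region of EcR at chr2R:6131889-6132231 had folds of 23.5, 25.1 and 24.5, and the 7 others in that gene were at most 11.9. Eip74EF, an ETS-domain gene induced by ecdysone, held 12, led by chr3L:17590428-17591163 with 19.8, 23.2 and 19.3. Strong regions also lay in the nuclear receptor gene ftz-f1 (19.5 ± 0.640; SD, n = 3), tai, which encodes a coactivator of EcR (18.3 ± 1.07, with 10 regions), and the kinase gene Eip63E (17.4 ± 1.24). All 6 regions of br also lay inside Mur2B, and the only one of Hr3 also lay inside CG12912 and CG46321. The 3 without a deep region were usp, Hr78 and MsrA, which the list names by its synonym Eip71CD. Their interiors were of at most 1.07 kb.

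Genes that pattern the wing disc held deep regions in 20 of 42 cases, where genes of these lengths had 28.9%. Libraries 1, 2 and 3 alone found 23, 24 and 23, against 35.3% for single libraries. After sr, the strongest were inv, an engrailed-class homeobox gene of the posterior compartment, with folds of 22.8, 19.9 and 19.2, and sd, the gene of the DNA-binding partner of Yorkie, with 20.7, 19.7 and 20.6. Then came nub, a POU gene of the wing pouch (16.5 ± 1.23; SD, n = 3), with a region 831 bp wide. That region also lay inside Ref2. The homeobox gene ct followed, with 14.3, 15.3 and 15.4. The larvae carried a nub-Gal4 driver, and its part in the value at nub was not tested. The fourth chromosome gene zfh2 held 6 of the 14 deep regions of that chromosome, the strongest at 12.2 ± 0.796. The genes ap, Dll, en, tsh, salm and brk had none, but each had at least 1 consensus region at its own ends. The interiors of brk and en were only 1.19 and 2.20 kb, but those of ap and Dll were 19.3 and 18.8 kb. A further gene of the list, bab2, had an interior of 34.8 kb and no deep region either.

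In the Hippo pathway, which restrains growth through the kinase Warts and its target Yorkie, 16 of 33 genes held deep regions, against 24.8% for these lengths. The libraries alone gave 19, 18 and 17, against 29.98%. Beside sd and hth, the strongest were in wts, the Warts gene, at chr3R:30794759-30795195 (18.6 ± 1.52; SD, n = 3), scrib (15.8 ± 2.42) and dlg1 (14.6 ± 0.693), genes of basolateral polarity. Tgi, whose product competes with Yorkie for Scalloped, held 4, led by chr3L:13499472-13500267 at 13.5 ± 0.580. The cadherin gene ds held 6, the strongest at 9.37 ± 1.32. The genes hpo, yki, mats, sav and Mer had none, with interiors of at most 1.80 kb. Of all protein-coding genes with interiors up to 2 kb, 0.855% held a deep region. Longer genes of the list without one included app, crb, aPKC and Cka, with interiors of 56.1, 17.5, 16.5 and 7.07 kb. A consensus region lay at an own end of hpo and of yki. Of Yorkie target genes, 12 of 21 held deep regions (27.1% for these lengths), with 14, 13 and 13 in single libraries against 32.96%. The Notch ligand gene Ser led, with folds of 15.1, 22.0 and 17.98 in libraries 1, 2 and 3.

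E2f1 and InR, the insulin receptor gene, each held 8 deep regions, with strongest values of 11.2 ± 0.644 and 12.4 ± 1.70 (SD, n = 3). CycE had 13.1 ± 0.606 and Myc 11.9 ± 1.88, the latter in its only deep region, which also lay inside lncRNA:CR44999. Diap1, the caspase inhibitor gene, held a single deep region of 4.70 ± 0.636, below the lower quartile of all deep regions.

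EGFR signalling genes held deep regions in 15 of 24 cases, against 28.2% for these lengths, and each library alone gave 15 against 34.1%. The ligand genes spi and vn held 5 and 2, the receptor gene Egfr 7 (strongest 13.9 ± 1.45; SD, n = 3), the kinase genes Raf and rl 8 and 2, and the nuclear effectors pnt, aop and cic 6, 4 and 11. The feedback inhibitor gene sty had the strongest region, with folds of 14.9, 18.8 and 21.4, highest in library 3, followed by aop (16.3 ± 1.60) and cic (15.8 ± 1.61). The only deep regions of ru and aos also lay inside Ptp61F and CG33158, respectively. No deep region lay in rho, Ras85D, Sos, drk or Dsor1, but rho and drk each had a consensus region at an own end.

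Notch pathway genes held them in 8 of 14 cases (29.3% for these lengths), and each library alone gave 8 against 35.1%. The strongest lay in numb, whose product antagonises Notch (20.8 ± 1.33; SD, n = 3), Ser and ct, while mam had 13 regions and N, the receptor gene, 7, the strongest at 10.7 ± 1.18. In Wingless signalling 12 of 23 genes held deep regions (28.8% for these lengths, and 13 in each library against 34.8%). Wnt6 led with 18.3 ± 0.870, then sgg, the GSK3 gene, with 7 regions and a strongest value of 16.7 ± 0.410, arm, the beta-catenin gene (16.6 ± 3.22), dally (14.2 ± 1.26) and the receptor gene fz2 (13.9 ± 0.612). wg itself had none, but 1 consensus region lay within 1000 bp of its own ends.

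The Dpp and Activin list had 9 of 19 (24.99% for these lengths, and 9 in each library against 30.3%), among them the ligand gene dpp with 3, the receptor gene tkv with 9 of low fold, the strongest at 7.37 ± 1.03 (SD, n = 3), and shn with 12. After dally, its strongest values were those of dpp (13.1 ± 1.30), the receptor gene put (12.8 ± 0.834), the inhibitor gene Dad (11.8 ± 0.462) and cv-2 (11.5 ± 1.27). The Hedgehog list had 6 of 14 (22.2% for these lengths, and 6, 7 and 6 in single libraries against 27.1%), with inv and the receptor gene ptc (14.4 ± 0.245) in front. Lists share members: dally is on 4 of them, dlp on 3 and sd, hth, Ser and inv on more than 1, so their counts are not independent.

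Hox genes and their cofactors held deep regions in 7 of 10 cases (41.4% for these lengths), led by Abd-B at chr3R:16934206-16934662, where the 3 libraries gave a mean fold of 17.3 ± 0.138 (SD, n = 3). Ubx had 1 of 12.9 ± 1.79 and Antp 17. Of Polycomb and trithorax genes 8 of 24 held them (18.97% for these lengths), led by psq (17.7 ± 0.811), kis (11.3 ± 1.42) and osa (10.9 ± 1.78), and trx held 5. A list of long regulators, mostly zinc finger and BTB genes and written with earlier region counts of these data in view, had 20 of 22 (51.3% for these lengths). Its strongest regions lay in ttk (21.3 ± 1.57), psq, Eip63E, sbb (16.1 ± 1.19) and bun. Of adhesion and cytoskeleton genes 15 of 32 held them (28.1% for these lengths), with arm, Moe (14.7 ± 1.61), RhoGAP19D (14.2 ± 0.732), Rho1 (13.5 ± 1.10) and mew (12.1 ± 1.74) in front.

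Ion channel and neurotransmitter receptor genes, which set neuronal excitability, had a median interior of 36.7 kb, and 4 of 35 (11.4%) held a deep region where genes of these lengths had 44.1%. Libraries 1, 2 and 3 alone found 5, 9 and 9 of 35, a mean of 21.9% ± 6.60 (SD, n = 3), below the 52.4% ± 0.317 of all genes of these lengths in 3 of 3 libraries. The 4 genes were KCNQ, a potassium channel gene (11.6 ± 0.174), nAChRalpha3 (11.4 ± 3.23), the GABA receptor gene Rdl (6.45 ± 1.16) and Ca-alpha1T (5.44 ± 1.26). The sodium channel gene para and the potassium channel genes Sh and slo were among the 31 with none.

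Axon guidance and synaptic adhesion genes, equally long with a median interior of 38.9 kb, held deep regions in 20 of 46 cases (43.5%), close to the 43.9% of all genes of these lengths. Libraries 1, 2 and 3 alone gave 25, 22 and 22 of 46, against 51.9%. Many of these proteins also act in epithelia. After unc-5, the strongest were Dscam1 (20.5 ± 1.90; SD, n = 3), hbs (17.9 ± 1.27), Ten-a, a teneurin gene (17.3 ± 1.5, with 8 regions), and Nrg, the neuroglian gene of septate junctions (15.1 ± 1.255).

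Marker lists of other cells of the disc or larva gave mixed counts. Adult muscle precursor genes held deep regions in 9 of 18 cases (38.4% for these lengths, and 9, 11 and 10 in single libraries against 45.7%), with Mef2 at 18.3 ± 0.5 (SD, n = 3), kirre, rols (13.0 ± 1.21), how (10.4 ± 2.21) and Tm1 (10.2 ± 2.65) in front. The 6 regions counted for twi also lay in CG42741. Tracheal genes had 7 of 13 (26.5% for these lengths), led by Ser, pio (15.2 ± 2.01) and trh (12.4 ± 2.85). Haemocyte genes had 0 of 11 (19.1% for these lengths), and 0 in each library against 23.8%. Fat body genes had 1 of 8 (15.7% for these lengths), FASN1 at 7.39 ± 0.290. Of the 8 Y genes with an interior, 4 held deep regions, where genes of these lengths had 56.3%.

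**Figure D5:**
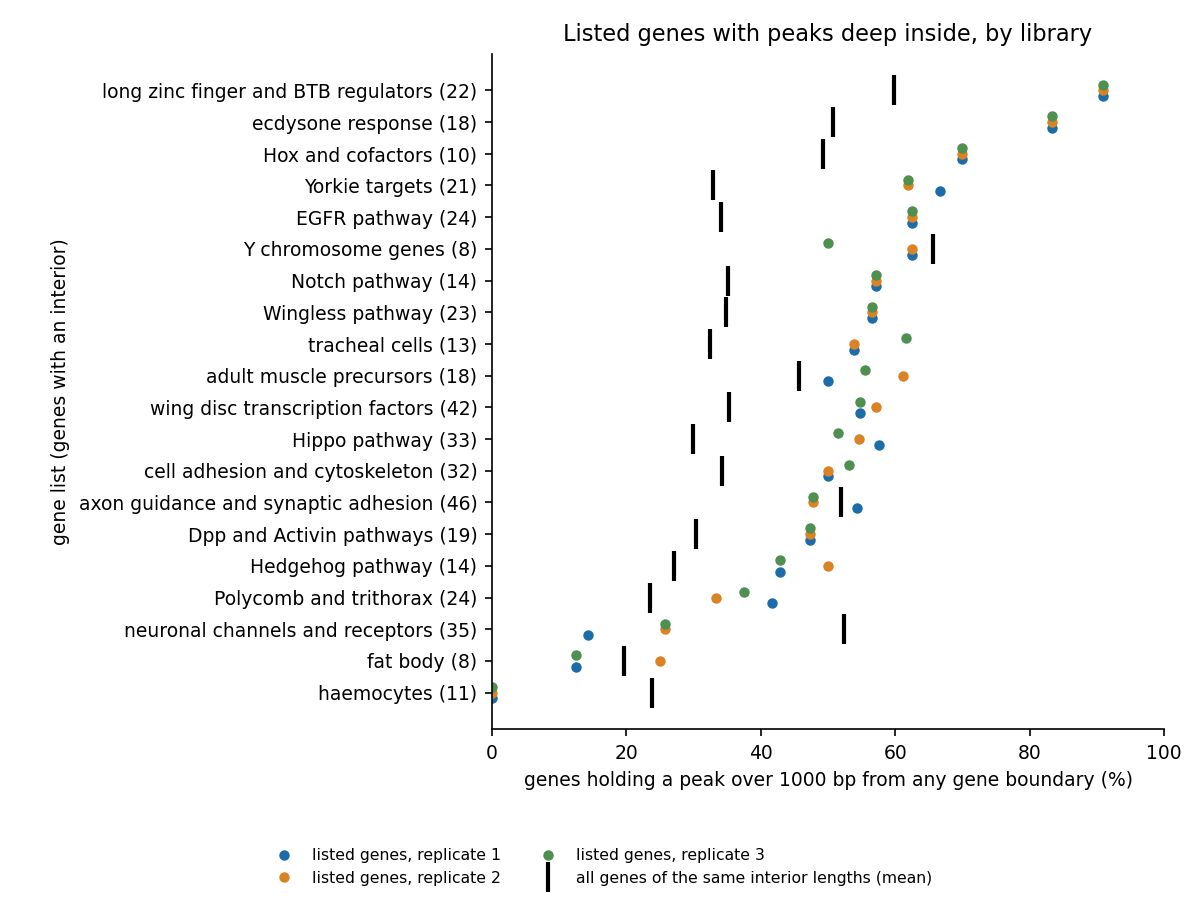
Share in % of listed genes with an interior that hold a peak over 1000 bp from any gene boundary, with a point per library and, as a black tick, the mean share of all protein-coding genes of the same interior lengths. Neuronal channel and receptor genes, haemocyte genes and Y chromosome genes lie left of their ticks in 3 of 3 libraries. Most lists, ecdysone response and EGFR genes among them, lie right of theirs.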

How the data were processed

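Per the submitters' processing notes, the tools included Trim Galore, Bowtie2, Bowtie and MACS2 and the build was dm6; how the aligner and caller were set, and what was done with repeated or duplicate reads, is not given in the sources used here. Each deposited list gives, per peak of 1 library, positions, fold enrichment as a linear ratio over the caller's background, −log10 p-values and −log10 q-values, and a score that tracks the −log10 q-value. The authors' lists hold no read counts, so depth is unknown. The libraries had 8270, 8118 and 8273 peaks on the 7 chromosomes.

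Peaks and genes were put on 1-based positions. Genes came from the NCBI RefSeq table of Release 6 plus ISO1 MT (17807 genes). A gene holds every region centred in it. Interiors were sorted into 6 length classes, and a list's comparison value is the mean, over its genes, of the class share. Of 471 list names, 6 matched no single gene. Classes of regions were compared within libraries by exact sign-flip permutation tests. Named were the 15 strongest, 5 widest and 5 most variable regions, the genes with most and densest regions, and up to 5 genes a list; other names were chosen after their values were seen. Members and lists were chosen with earlier results of these data known. The planned motif, exon and intron counts were not made, since no genome or exon annotation was used here. Code was tested on simulated data (python 3.11.15, pandas 2.3.3).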

Additional observations from a re-analysis of the deposited data

How the results depend on the processing

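The number of deep regions was 2167 with all 3 libraries and between 1719 and 2838 over 10 alternatives. The difference in median fold from boundary regions was -0.733 to -0.355 and that in width 22.3 to 36.7 bp over the same 10, and as a mean of log2 folds the fold difference was -0.09. The share of consensus regions was 46.1% at over 500 bp from a boundary, 29.8% at over 2000 bp, 39.5% with protein-coding boundaries alone and 36.8% with peaks of −log10 q of 5 or more. Leaving out a replicate gave 36.8% to 37.7%. Counts by list stayed within 1.5 times the main count under the 6 alternatives run, except fat body genes, with 2 at over 500 bp. Genes with a deep region numbered 773 to 1295. The comparisons of region classes were paired within libraries, and with 1 group no block between groups applied. A depth is not given, so weak regions missed in a library cannot be told from absent ones.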

Other observations

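Outside protein-coding genes, 59 deep regions lay in non-coding genes alone, 56 of them in lncRNA genes. Counting regions that also lie in coding genes, lncRNA:CR44833 on X held 9 deep regions in 94.3 kb of interior, the strongest with a fold of 13.8 ± 1.17 (SD, n = 3). lncRNA:iab8, the long transcript between abd-A and Abd-B of the bithorax complex, held 5, the strongest at 14.1 ± 3.33, and lncRNA:CR46006 on 3L held 4, with a strongest value of 15.8 ± 4.10. The highest fold of a deep region in an lncRNA gene was 20.2 ± 1.65, in lncRNA:CR45668 on X, whose 3 regions had a median of 4.57.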
